A study of Mus musculus with 12 samples.

Results

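MYC is the transcription factor that resting T cells induce after antigen receptor engagement, and ribosome biogenesis is among the programmes it is best known for. It binds DNA as a heterodimer with MAX at E-box sequences, and its targets include the nucleolar machinery that transcribes, modifies and folds ribosomal RNA, together with enzymes of polyamine and pyrimidine synthesis. A ribosome is assembled in the nucleolus: RNA polymerase I makes the precursor RNA, box C/D and box H/ACA small nucleolar ribonucleoproteins (snoRNPs) modify it, and separate sets of assembly factors build the small (40S) and the large (60S) subunit.

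The 38 genes described here are Myc itself, 34 nucleolar factors and 3 enzymes, Srm, Odc1 and Cad. They were chosen by name, with earlier results of these data known, and all 38 were found among the 45777 genes of the deposited expression table. Each one passed the filter on low values that 15197 genes passed, and the lowest count of any member in any sample was 598 reads. By the labels, the cells were CD4+ T cells from the spleen of 7-week-old wild-type C57BL/6 mice, and every culture received anti-CD3 at 0.5 µg/ml for 3 days. Control cultures received no drug, and the other cultures were given metformin, FK506 (tacrolimus, a calcineurin inhibitor) or both drugs (Metformin+FK506), with 3 samples in each of the 4 groups. The sources used here do not give the doses of the RNA sequencing cultures, nor whether the 3 samples of a group came from separate mice, so the p-values measure the spread between these samples, which may be technical. The study's methods describe purification on CD4-coated magnetic beads. They also name soluble anti-CD28 beside anti-CD3 and give another age range for the mice, and the labels were followed here.

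Between 43402632 and 64290105 reads per sample were assigned to genes. The T cell markers were present in all 4 groups, with a mean Cd4 level of 140 FPKM in Control, 190 in Metformin, 199 in FK506 and 242 in Metformin+FK506. FPKM is a level in fragments corrected for transcript length and for the number of mapped fragments. RNA of other cell types was much higher in the FK506 groups. The summed level of 10 B cell markers was 51.3 to 53.3 FPKM in Control, 67.6 to 75.5 in Metformin, 838 to 887 in FK506 and 410 to 441 in Metformin+FK506, and that of 10 myeloid markers was 4.66 to 4.70, 9.10 to 10.4, 1238 to 1274 and 792 to 926 in the same order. Without Lyz2, which made up most of the myeloid sum in the FK506 groups, the other 9 summed to 261 to 281 FPKM in FK506 and 297 to 316 in Metformin+FK506. The summed level of the 12 T cell markers ranged from 2603 to 2662 in Control, 2395 to 2518 in Metformin, 2182 to 2293 in FK506 and 2273 to 2381 in Metformin+FK506. The myeloid gene C1qa was listed at 0 in Control and Metformin and averaged 39.6 FPKM in FK506, while Lyz2 averaged 0.0351 FPKM in Control and 981 in FK506. All 10 B cell and all 10 myeloid markers were past the threshold in FK506 against Control. The part of these other cells in the results below was not tested. In bulk RNA, fewer cells of a type and less RNA per cell cannot be told apart.

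**Figure D1:**
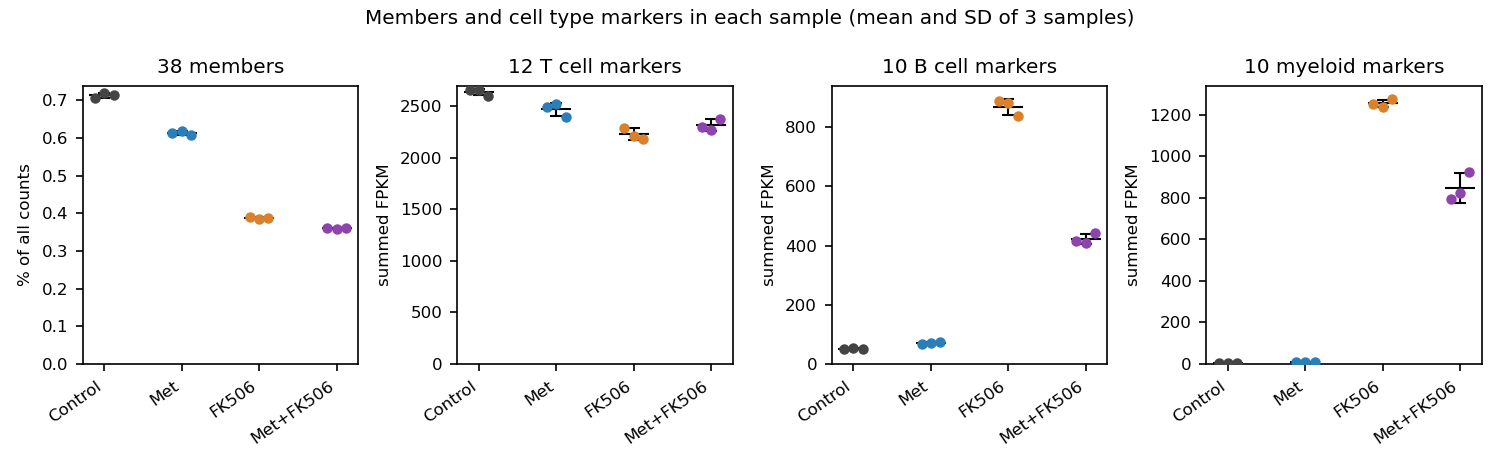
Percentage of all counts that fell on the 38 members (first panel) and summed FPKM of 12 T cell, 10 B cell and 10 myeloid markers (other panels) in each sample, by group, with points for the 3 samples and bars for their mean and SD. The member share fell from 0.712% in Control to 0.360% in Metformin+FK506, and the B cell and myeloid sums were high in both FK506 groups.

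The E-box CACGTG, the canonical site of the MYC-MAX dimer, was searched in the window from 250 bases before to 50 bases after the start of each gene in RefSeq (build GRCm38.p6). The motif is its own reverse complement, so a single search covers both strands. Of the 38 members, 31 had such a window, and 7 of these held the motif (22.6%). Among the other genes of the same pathways that were tested, 24 of 108 held it (22.2%), against 1215 of 10538 genes tested (11.5%) and 2187 of all 27025 genes with a window (8.09%). A match is a description of the sequence, not a bound site, and MYC binding was not measured. The 7 matches are shown because they are where the canonical site occurred in the windows of the members. The members without a window (Myc, Fbl, Npm1, Bop1, Rrs1, Rrp12 and Srm) were not searched. Sites outside the window were not searched in any gene, so a member without a match may still hold the motif elsewhere. Each has 30 bases, in the direction of the gene, with the motif in capitals.
Nop2: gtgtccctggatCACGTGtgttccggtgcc
Pes1: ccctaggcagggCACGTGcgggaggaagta
Wdr43: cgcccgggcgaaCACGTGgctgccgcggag
Tsr1: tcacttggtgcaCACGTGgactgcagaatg
Ltv1: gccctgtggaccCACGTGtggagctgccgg
Utp20: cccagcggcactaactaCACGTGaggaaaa
Mybbp1a: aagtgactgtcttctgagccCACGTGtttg

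In 6 of the 7 genes the motif lay just downstream of the annotated start, with its first base at position 3 in Pes1, 18 in Wdr43, 25 in Tsr1, 29 in Ltv1, 38 in Utp20 and 41 in Mybbp1a. Only Nop2, which encodes an rRNA cytosine methyltransferase of the large subunit pathway, carried it upstream, at position -60. The 120 bases before the Nop2 start, at chr6:125131763-125131882 on the plus strand of GRCm38.p6, read as follows, with the motif in capitals.
Nop2 upstream: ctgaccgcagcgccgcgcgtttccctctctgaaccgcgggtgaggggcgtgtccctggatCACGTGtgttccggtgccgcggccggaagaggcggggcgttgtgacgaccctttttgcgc

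The members also carry small nucleolar RNA (snoRNA) genes within their bodies, which the choice by name did not use. Of the 38 members, 9 (23.7%) enclosed at least 1 annotated snoRNA gene, 24 in all, compared with 2 of 125 other genes of the pathways (1.6%) and 201 of 12034 protein-coding genes tested (1.67%). Nop56 held 5 of them, including Snord57 and Snord110, and Nop58 held 4, including Snord11 and Snord70. Ncl, Gnl3 and Wdr43 held 3 each, Tsr1 and Ppan 2 each, and Dkc1 and Odc1 1 each. Nop56 and Nop58 encode the core proteins of the particles that box C/D snoRNAs guide. The snoRNAs themselves were not measured, since the libraries were made from polyadenylated RNA.

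The 38 members together took 0.712% ± 0.00695 of all counts in Control (SD, n = 3), 0.612% ± 0.00461 in Metformin, 0.387% ± 0.00383 in FK506 and 0.360% ± 0.00111 in Metformin+FK506. The 4 groups did not overlap in this share. A large part came from Npm1 alone, which took 0.195% in Control, 0.233% in Metformin, 0.0494% in FK506 and 0.0438% in Metformin+FK506. Without Npm1, the other members took 0.517%, 0.380%, 0.338% and 0.316% in the same order, so that the step from Control to Metformin was then the widest between neighbouring groups. Control levels of single members ranged from a mean of 6.10 FPKM for Utp20 to 1077 FPKM for Npm1, with a median of 33.7. The coefficient of variation between the 3 samples of a group had a median of 2.36% in Control, 3.66% in Metformin, 3.93% in FK506 and 5.66% in Metformin+FK506. It was highest for Npm1 in Metformin+FK506, at 18.0%.

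Fold changes below were fitted on the counts with edgeR, scaled by TMM, and a gene was called past the threshold at a Benjamini-Hochberg adjusted p under 0.05 over all 15197 genes. They are not ratios of the FPKM values, which carry no such scaling: the FPKM of all genes summed to between 477754 and 503231 in the Control and Metformin samples, and to between 393339 and 414061 in the FK506 and Metformin+FK506 samples. The TMM factors, by which the read totals were multiplied, were 0.917 to 0.926 in Control and 1.07 to 1.08 in FK506.

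Myc fell in all 3 treated groups. Its level was 118, 117 and 113 FPKM in the Control samples, 47.4, 45.7 and 49.3 in Metformin, 19.1, 18.3 and 17.8 in FK506, and 12.5, 13.6 and 14.1 in Metformin+FK506. The 4 groups formed separate ranges, in the order Control, Metformin, FK506, Metformin+FK506. Against Control, Myc decreased by 1.32 ± 0.045 (SE) on the log2 scale with metformin, a 2.50-fold difference (edgeR quasi-likelihood adjusted p = 5.31e-13). With FK506 it decreased by 2.87 ± 0.048, or 7.33-fold (edgeR adjusted p = 9.85e-18), and with both drugs the change was -3.31 ± 0.049, or 9.89-fold (edgeR adjusted p = 4.09e-18). Metformin added to FK506 lowered Myc further, by 1.35-fold (log2 -0.43 ± 0.049, edgeR adjusted p = 5.03e-06). FK506 alone left Myc 2.93-fold lower than metformin alone did (log2 -1.55 ± 0.047, edgeR adjusted p = 2.17e-14).

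**Figure D2:**
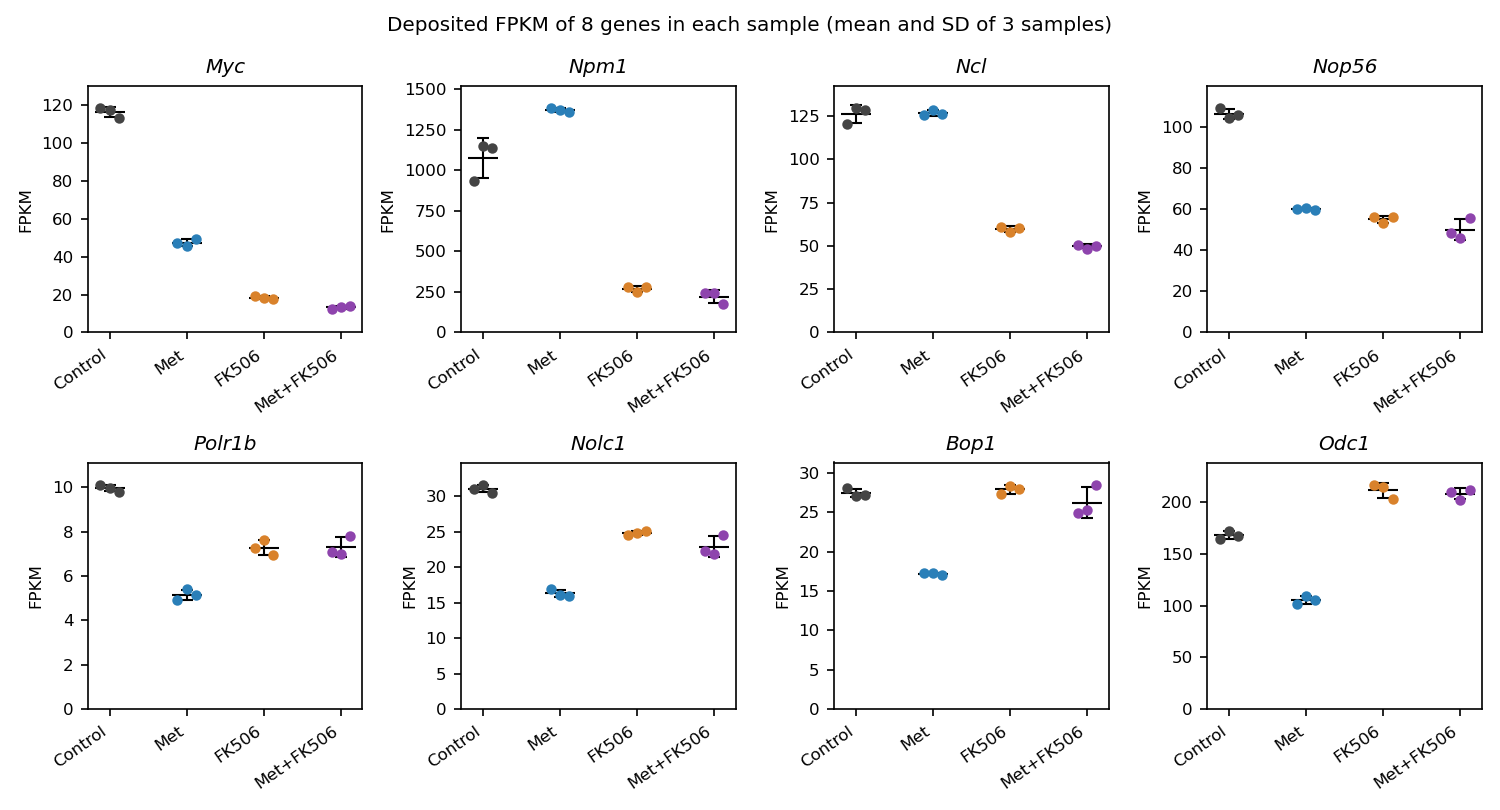
FPKM of 8 members in each of the 12 samples, by group, with points for samples and bars for the mean and SD of 3 samples, on axes that start at 0. Myc formed 4 separate ranges, Npm1 and Ncl were low in the FK506 groups alone, and Polr1b, Nolc1, Bop1 and Odc1 were lowest in Metformin.

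Metformin against Control asked what the antidiabetic drug did on its own. Of the 38 members, 33 were lower, 1 was higher and 4 did not pass the threshold. Over all genes tested, 27.4% were lower and 28.6% higher in this comparison. The median change of the members was -0.66 on the log2 scale, against 0.01 over all genes tested. In scaled counts, every Metformin sample of 35 members was below every Control sample (32.1% of all genes tested), and in 1 member every Metformin sample was above (34.2%). Myc alone fell by a log2 unit or more (5.65% of all genes tested), and no member rose as much (4.81%), so the change of the other members was broad and of moderate size. The B cell marker sum was 71.6 FPKM in Metformin and 52.1 in Control, and the myeloid sum 9.71 and 4.69, most of it Cd68 (8.81 and 4.29). Of the 10 B cell markers, 7 were higher, 1 was lower and 2 were not past the threshold, with a median of 0.41. The 2 CD8 T cell markers were both higher, with sums of 13.1 FPKM in Metformin and 9.18 in Control. Of the 10 myeloid markers, 3 were higher (Cd68, Itgam and Fcgr3), 1 was lower (Csf1r, at 0 to 0.0092 FPKM in both groups) and 6 were not past the threshold.

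The RNA polymerase I subunit Polr1b, the second largest of the enzyme, was among the members that metformin lowered most. It measured 10.1, 9.99 and 9.81 FPKM in Control and 4.92, 5.39 and 5.14 in Metformin. The ranges lay far apart, and Polr1b fell by 0.99 ± 0.061 on the log2 scale, 1.98-fold (edgeR adjusted p = 9.63e-10). The other 4 members of this class also fell: the largest subunit Polr1a by 0.48, the subunit Polr1c (shared with RNA polymerase III) by 0.30, the nucleolar RNA helicase Ddx21 by 0.32, and Mybbp1a, a nucleolar MYB-binding protein, by 0.72.

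All 6 snoRNP proteins fell with metformin. Nop56, a box C/D core protein, went from 109, 104 and 106 FPKM in Control to between 59.5 and 60.4 in the 3 Metformin samples, a decrease by 0.84 ± 0.033 on the log2 scale (edgeR adjusted p = 3.09e-12). Its partner Nop58 fell by 0.44 and Fbl, the methyltransferase fibrillarin, by 0.39. Among the box H/ACA proteins, whose particles make pseudouridine at sites chosen by their snoRNAs, the pseudouridine synthase Dkc1 fell by 0.45, Nhp2 by 0.44 and Gar1 by 0.74.

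The 4 nucleolar chaperones and scaffolds were divided under metformin. Nolc1, a snoRNP chaperone of the nucleolus, fell from 31.1, 31.6 and 30.5 FPKM to between 15.9 and 16.9 in the 3 Metformin samples. It fell by 0.96 ± 0.042 on the log2 scale (edgeR adjusted p = 1.08e-11). Gnl3 (nucleostemin) fell by 0.69. Npm1, the abundant nucleolar histone and ribosome chaperone nucleophosmin, was the only member that rose. It measured 937, 1153 and 1140 FPKM in Control and 1382, 1374 and 1358 in Metformin, a rise of 0.22 ± 0.039 on the log2 scale (edgeR adjusted p = 1.66e-04). Control sample 1 stood below the other 2 in FPKM, but Npm1's share of counts was 0.191% to 0.198% over the Control samples and 0.231% to 0.233% over the Metformin samples. Ncl (nucleolin), at 120, 129 and 129 FPKM in Control and 126, 129 and 126 in Metformin, had a change of -0.03 ± 0.039 (edgeR adjusted p = 0.474), and its fitted sign turned to above 0 when counts were scaled to T cell genes and when FPKM values were fitted with limma.

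Of the 9 small subunit factors, 8 fell with metformin. The largest changes were in Rrp12 (-0.80), an export factor of both subunits, Noc4l (-0.77) and Rrp9 (-0.69), the U3 snoRNP protein. Wdr43 fell by 0.57, Tsr1 by 0.51, Nop14 by 0.37, Utp20 by 0.36 and Heatr1 by 0.33. Ltv1, which acts late in 40S maturation, measured 24.2 to 26.2 FPKM in Control and 22.7 to 24.2 in Metformin, with a change of -0.12 ± 0.053 (edgeR adjusted p = 0.0688). For Tsr1, 32.3% of the exon bases overlap Srr on the opposite strand, and the sources used here do not say whether counting used the strand, so its values are uncertain.

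Of the 10 large subunit factors, 8 fell, by values that lay close together, from 0.51 for Nip7 to 0.76 for Ppan and for Nop2. The PeBoW complex, made of PES1, BOP1 and WDR12 and needed for 5.8S and 28S rRNA maturation, did not move as a unit. Pes1 fell by 0.62 ± 0.040, and Bop1, at 27.1 to 28.1 FPKM in Control and 17.1 to 17.3 in Metformin, fell by 0.71 ± 0.047 (edgeR adjusted p = 2.00e-09). Wdr12 measured 11.3, 11.9 and 11.3 FPKM in Control and 11.7, 13.5 and 12.4 in Metformin, a change of 0.06 ± 0.066 (edgeR adjusted p = 0.479). Without Metformin sample 2 the fitted value of Wdr12 was -0.0024. Wdr74 did not pass the threshold either (-0.13 ± 0.065, edgeR adjusted p = 0.107).

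The 3 enzymes of polyamine and pyrimidine synthesis fell by similar amounts with metformin. Odc1, ornithine decarboxylase, which catalyses the first committed step of polyamine synthesis, was at 164, 172 and 167 FPKM in Control and 102, 109 and 106 in Metformin. It fell by 0.70 ± 0.037 on the log2 scale (edgeR adjusted p = 1.23e-10). Srm, spermidine synthase, fell by 0.88, and Cad, the enzyme of the first steps of pyrimidine synthesis, by 0.69.

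**Figure D3:**
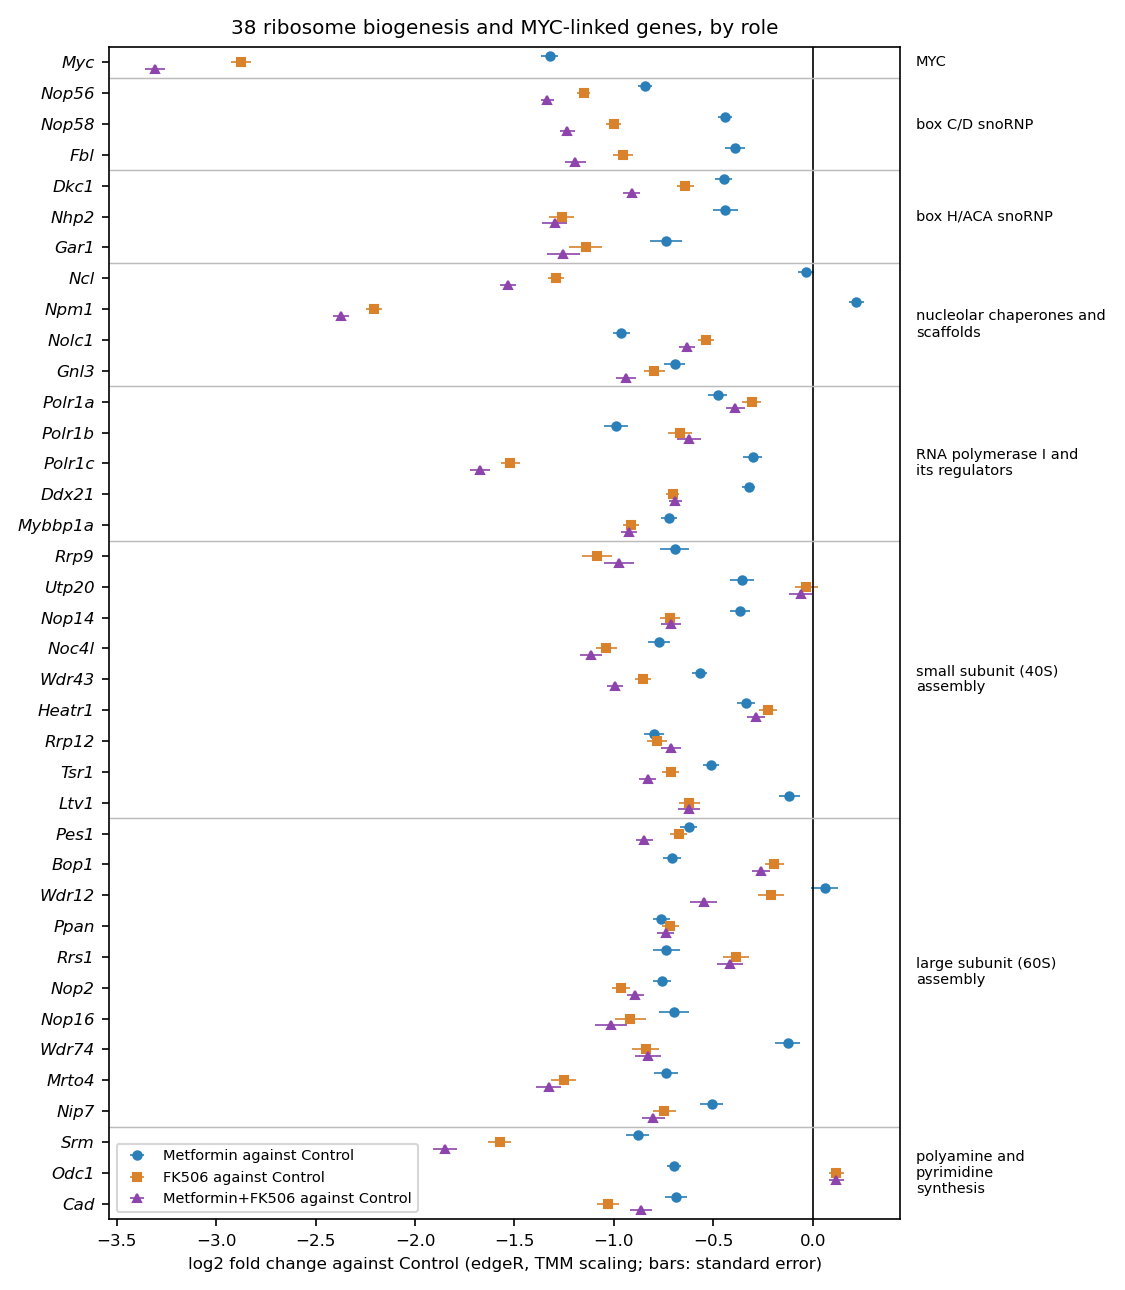
Fitted log2 fold change (edgeR, TMM scaling) of the 38 members against Control in Metformin (circles), FK506 (squares) and Metformin+FK506 (triangles), ordered by role, with bars for the standard error. Nearly all points lie below 0. Npm1 was above 0 in Metformin (0.22) and Odc1 above 0 in both FK506 groups (0.12).

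FK506 against Control asked what the calcineurin inhibitor did on its own. In all, 36 members were lower, 1 was higher and 1 did not pass the threshold, where 39.6% of all genes tested were lower and 41.3% higher. The median change of the members was -0.82, against 0.02 over all genes tested. Samples of the groups did not overlap in the scaled counts of 36 lower members (41.5% of all genes tested) and 1 higher member (43.0%). In 13 members the fall was a log2 unit or more (16.7% of all genes tested), and 0 rose as much (19.8%). All 10 B cell and all 10 myeloid markers were higher in the same samples, and of the 12 T cell markers 8 were lower and 4 higher, with a median of -0.44.

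These numbers depend on the scaling. When samples were scaled to the 12 T cell genes, the median of all genes moved to 0.45 in FK506 against Control, 0.38 in Metformin+FK506 against Control and 0.07 in Metformin against Control. The members' medians were then -0.40, -0.53 and -0.60. In FK506 against Control, 31 members were lower under that scaling, and 5 were higher (Odc1, Bop1, Wdr12, Utp20 and Heatr1), relative to a general shift upwards in which 24.6% of all genes were lower and 58.7% higher. The falls of a log2 unit or more were then 4 in place of 13 (Myc, Npm1, Polr1c and Srm). Over all genes, 8921 were then higher and 3742 lower, against 6283 and 6014 with TMM. With limma on log2(FPKM + 1), which has no such scaling, the median of all genes was 0.19 and the split 7585 against 4785.

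Npm1 and Ncl, which metformin did not lower, were among the members that FK506 lowered most. Npm1 measured 282, 247 and 281 FPKM in FK506, 4.61-fold lower than in Control (log2 -2.21 ± 0.041, edgeR adjusted p = 3.41e-17). Ncl measured 60.9, 57.8 and 60.3 FPKM, 2.44-fold lower (log2 -1.29 ± 0.040, edgeR adjusted p = 1.95e-14). No FK506 sample came near the Control range for either gene. The scaffolds Nolc1 (-0.54) and Gnl3 (-0.80) fell less. Processed copies of Npm1 exist in the genome, and reads shared with them were not resolved here.

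The RNA polymerase I subunits spread widely under FK506. Polr1c fell from 53.1, 54.6 and 54.4 FPKM to 23.0, 21.9 and 20.7, 2.87-fold (log2 -1.52 ± 0.050, edgeR adjusted p = 4.63e-14). Polr1b fell by 0.67 and Polr1a by 0.31, and the value of Polr1a turned to 0.11 when samples were scaled to T cell genes. Mybbp1a fell by 0.92 and Ddx21 by 0.71.

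The 6 snoRNP proteins all fell with FK506, by between 0.64 (Dkc1) and 1.26 (Nhp2). Nhp2 was at 51.5, 51.9 and 51.3 FPKM in Control and 27.8, 23.5 and 23.8 in FK506. Nop56, at 56.1, 53.0 and 56.0 FPKM in FK506, fell by 1.15, Nop58 by 1.00, Fbl by 0.96 and Gar1 by 1.14. All 6 kept this direction under T cell scaling.

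Among the assembly factors, 18 of 19 fell with FK506. Mrto4, a factor of the ribosomal stalk of the 60S subunit, fell by 1.25 ± 0.062 (edgeR adjusted p = 1.11e-11), Rrp9 by 1.09 and Noc4l by 1.04. The smallest falls were in Bop1 (-0.19), Wdr12 (-0.21), Heatr1 (-0.23) and Rrs1 (-0.39), and each of these 4 values turned to above 0 under T cell scaling. Bop1 was at 27.3, 28.4 and 28.0 FPKM in FK506, within the span of its Control levels or just above it. Utp20, a large scaffold protein of the small subunit pathway, had a change of -0.03 ± 0.058 (edgeR adjusted p = 0.602) and was at 6.33, 7.60 and 6.85 FPKM in FK506 against 6.05, 6.18 and 6.08 in Control. Its fitted value was above 0 with T cell scaling, with limma and without FK506 sample 1.

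The 2 polyamine enzymes moved apart under FK506. Srm fell from 56.1, 54.8 and 55.2 FPKM to 21.0, 21.0 and 22.8, 2.98-fold (log2 -1.58 ± 0.059, edgeR adjusted p = 2.57e-13). Odc1 was at 217, 215 and 203 FPKM in FK506 and rose by 0.12 ± 0.036 (edgeR adjusted p = 0.00739), a call that was lost without the filter on low values (0.09, edgeR adjusted p = 0.067). Cad fell by 1.03.

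FK506 was set against Metformin directly, in a contrast added after the values of the other comparisons had been seen. Of the 38 members, 26 were lower with FK506 than with metformin, 8 were higher and 4 did not pass the threshold, where 38.6% of all genes tested were lower and 39.9% higher. A difference of a log2 unit or more was found in 4 lower members (14.6% of all genes tested) and 0 higher ones (17.8%). The 8 that were higher were Odc1 (0.82), Bop1 (0.51), Nolc1 (0.42), Rrs1 (0.35), Utp20 (0.32), Polr1b (0.32), Polr1a (0.17) and Heatr1 (0.11), and each kept its call under T cell scaling. For Bop1 the Metformin samples were at 17.1 to 17.3 FPKM and the FK506 samples at 27.3 to 28.4. The members with the largest difference in the other direction were Npm1 (-2.42), Myc (-1.55), Ncl (-1.25), Polr1c (-1.22) and Nhp2 (-0.82). Under T cell scaling the split was 17 higher and 11 lower (57.4% and 23.3% of all genes), the median of all genes was 0.38, and the members' median turned from -0.27 to 0.10. A difference of a log2 unit or more was then found in 2 lower members, Myc and Npm1, and 1 higher one, Odc1. The 11 that stayed lower were Myc, Npm1, Ncl, Nop58, Fbl, Nhp2, Polr1c, Mrto4, Wdr74, Ltv1 and Srm.

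Within RNA polymerase I, the subunits of a single enzyme were thus lower under different single drugs. Polr1b was at 4.92 to 5.39 FPKM in Metformin and 6.94 to 7.62 in FK506, and Polr1c at 44.1 to 45.8 in Metformin and 20.7 to 23.0 in FK506. Neither gene's ranges overlapped between the drugs. The difference between FK506 and Metformin was 0.32 ± 0.062 for Polr1b (edgeR adjusted p = 1.74e-04) and -1.22 ± 0.050 for Polr1c (edgeR adjusted p = 1.16e-12). In the PeBoW complex, Bop1 was 1.43-fold higher with FK506 than with metformin and Wdr12 1.20-fold lower, while Pes1 did not pass the threshold (-0.05). The Wdr12 call was lost under T cell scaling, with a value of 0.10, and Pes1 was higher by 0.32 (edgeR adjusted p = 2.36e-06).

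Both drugs together were set against Control. Among the members, 36 were lower, 1 (Odc1, 0.12) was higher and 1 (Utp20, -0.06) did not pass the threshold, where 39.6% of all genes tested were lower and 42.1% higher. The Odc1 call was lost without the filter on low values (0.06, edgeR adjusted p = 0.169). The median was -0.88, against 0.03 over all genes tested. In 13 members the fall was a log2 unit or more (17.3% of all genes tested), and 0 rose as much (20.0%). The largest falls were in Myc (-3.31), Npm1 (-2.37), Srm (-1.85), Polr1c (-1.67) and Ncl (-1.53). Npm1 was at 246, 242 and 175 FPKM, so sample 3 stood below the other 2 in FPKM, while its share of counts was 0.0425% to 0.0459%. Scaled to T cell genes, 32 members were lower and 2 (Odc1 and Utp20) higher, where 27.1% of all genes were lower and 55.9% higher, and the values of Bop1 and Heatr1 turned to 0.09 and 0.06. Falls of a log2 unit or more then numbered 5 in place of 13 (Myc, Npm1, Ncl, Polr1c and Srm). In mean FPKM, 20 of the 38 members followed the order Control, Metformin, FK506, Metformin+FK506 from high to low, and 10 had their lowest mean in Metformin. Neighbours in that order often did not differ, as the comparison of the FK506 groups shows. The counts of 20 and 10 rest on FPKM, which carries no TMM scaling, and were not set against all genes. Under T cell scaling the members' median in FK506 against Metformin was 0.10, so the step from Metformin to FK506 depends on the scaling.

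Metformin added to FK506, against FK506 alone, changed far fewer members. Of the 38, 13 were lower, 1 was higher and 24 did not pass the threshold, where 15.0% of all genes tested were lower and 15.6% higher. The median change was -0.08, against 0.00 over all genes tested. No member fell by a log2 unit (2.30% of all genes tested) or rose by one (1.91%). After Myc, the falls were in Wdr12 (-0.34), Srm (-0.27), Dkc1 (-0.27), Ncl (-0.24), Fbl (-0.24), Nop58 (-0.23), Nop56 (-0.18), Pes1 (-0.17), Npm1 (-0.17), Polr1c (-0.15), Wdr43 (-0.14) and Tsr1 (-0.12). All 3 box C/D proteins were thus lower, but 2 of 3 box H/ACA proteins, 4 of 5 RNA polymerase I genes and 15 of 19 assembly factors were not past the threshold. Under T cell scaling the median was -0.15, against -0.07 over all genes, and 17 members were lower (23.4% of all genes tested), the 13 with Nolc1, Gnl3, Polr1a and Bop1. The 13 calls did not hold under every other alternative. The call of Tsr1 was lost in 11 of 21, namely the replicate block, a fit of only the groups compared and 9 omissions of a single sample. Polr1c lost its call in 3 (only the groups compared, and without FK506 sample 1 or Metformin+FK506 sample 3), Nop56 and Npm1 in both limma fits, and Wdr43 in the fit of only the groups compared. The B cell markers fell by a median of 0.99 in this comparison, all 10 of them past the threshold, while of the 10 myeloid markers 3 rose (C1qb, C1qc and Cd68), 1 fell (Lyz2) and 6 were not past the threshold, with a median of 0.13.

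Wdr12 showed the largest of these changes after Myc. It was at 10.7, 10.3 and 10.5 FPKM in FK506 and 8.28, 8.21 and 7.83 in Metformin+FK506. The groups did not overlap (log2 -0.34 ± 0.067, edgeR adjusted p = 0.00107). The call of Cad as higher (0.17 ± 0.056, edgeR adjusted p = 0.0335) was lost without FK506 sample 1 (0.14) or 3 (0.11) and without Metformin+FK506 sample 1 (0.13) or 3 (0.12), and under 7 of the 9 alternatives that kept all samples. In FPKM the Cad ranges overlapped, since 1 Metformin+FK506 sample lay within the FK506 range of 11.2 to 13.1 and the other 2 were at 13.9 and 14.1.

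The interaction term tested whether the metformin effect differed between cultures with and without FK506. A value above 0 means that the log2 change with metformin was higher, that is less negative, when FK506 was present. Of the 38 members, 31 were past the threshold above 0, 3 were below 0 and 4 were not past, where 22.5% of all genes tested were above and 24.0% below. In 1 member, Polr1b, the value was a log2 unit or more above 0 (5.91% of all genes tested), and 0 were as far below (6.02%). The median was 0.50, against -0.02 over all genes tested. The median metformin effect on the members was -0.66 without FK506 and -0.08 with it, and in 36 members it was nearer to 0 with FK506 present (67.8% of all genes tested). The FK506 effect was in turn nearer to 0 with metformin present in 32 members (55.9% of all genes tested). Under T cell scaling the median of all genes was -0.15 and that of the members 0.37. Then 27 were above 0 and the same 3 below (15.3% and 33.0% of all genes), and the calls of Nop58, Dkc1, Utp20 and Heatr1 were lost, and 0 members were a log2 unit or more from 0.

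**Figure D4:**
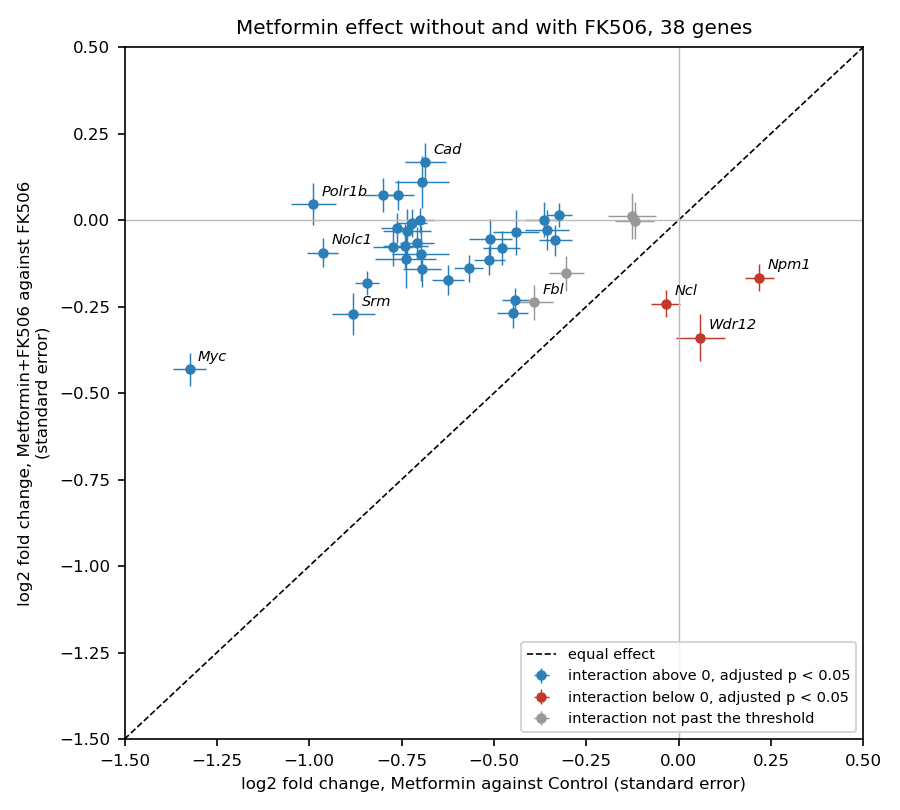
Log2 fold change of each member with metformin in the absence (horizontal axis) and presence of FK506 (vertical axis), with bars for standard errors, coloured by the interaction test. The dashed line marks equal effects. Most members lie above it and near 0 on the vertical axis, and Npm1, Ncl and Wdr12 lie below it.

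In 22 members the gene fell with metformin alone, did not pass the threshold with metformin added to FK506, and had an interaction above 0, a pattern that 12.5% of all genes tested showed. Polr1b had the largest interaction. Its FPKM values in FK506 were 7.26, 7.62 and 6.94, and in Metformin+FK506 7.09, 6.98 and 7.82, a change of 0.05 ± 0.061, against -0.99 without FK506. The interaction was 1.03 ± 0.086 (edgeR adjusted p = 6.14e-08). Nolc1 (0.87), Rrp12 (0.87), Nop2 (0.83), Rrp9 (0.80), Ppan (0.74), Mybbp1a (0.71), Rrs1 (0.70) and Odc1 (0.70) belonged to the same 22, of which Nolc1, Gnl3, Polr1a and Bop1 did pass as lower with both drugs against FK506 when scaled to T cell genes. Odc1 had a change of 0.00 ± 0.036 with metformin in the presence of FK506 (edgeR adjusted p = 0.996), at 210, 202 and 212 FPKM in Metformin+FK506.

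In 8 members (Myc, Nop56, Nop58, Dkc1, Wdr43, Tsr1, Pes1 and Srm) metformin lowered the gene in both settings, but less with FK506 present (2.22% of all genes tested). For Tsr1, Nop56 and Wdr43 the call with FK506 present was lost under the alternatives named above. The Myc interaction was 0.89 ± 0.066 (edgeR adjusted p = 1.43e-08), from a fall of 1.32 without FK506 to 0.43 with it. Fbl and Polr1c fell in both settings with interactions of 0.15 each that did not pass the threshold (edgeR adjusted p = 0.0916 and 0.0956). The 3 members below 0 were Npm1 (-0.38), Wdr12 (-0.40) and Ncl (-0.21), which metformin raised or left without a call on its own and lowered in the presence of FK506. Ltv1 (0.12) and Wdr74 (0.14) had no metformin call in either setting and no call for the interaction.

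FK506 added to metformin, against metformin alone, lowered 28 members and raised 6, and 4 were not past the threshold, where 37.9% of all genes tested were lower and 40.3% higher. The median was -0.33, against 0.02 over all genes tested. The 6 that rose were Odc1 (0.82), Bop1 (0.45), Polr1b (0.37), Nolc1 (0.33), Rrs1 (0.32) and Utp20 (0.29). For Nolc1, the Metformin samples were at 15.9 to 16.9 FPKM and the Metformin+FK506 samples at 22.3, 21.9 and 24.5. In 4 members the fall was a log2 unit or more (14.6% of all genes tested), and 0 rose as much (17.6%). These 4 were Npm1 (-2.59), Myc (-1.98), Ncl (-1.50) and Polr1c (-1.37). Under T cell scaling 11 were higher and 16 lower (54.3% and 25.5% of all genes), with the median of all genes at 0.31 and that of the members at -0.04. The same 4 were then a log2 unit or more lower, and Odc1 as much higher.

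The other genes of these pathways were examined in lists chosen by function: 45 small subunit factors, 43 large subunit factors, 12 genes of the RNA polymerase I machinery, 10 of the MYC network, 13 of polyamine metabolism and 7 of pyrimidine synthesis. Of these 130 genes 127 were in the table, and 125 were tested. The MYC paralogs Mycn and Mycl were below the filter. In Metformin against Control 84 of the 125 were lower and 13 higher (median -0.27), where 27.4% of all genes tested were lower and 28.6% higher. In FK506 against Control the numbers were 92 and 15 (median -0.40), where the shares of all genes were 39.6% and 41.3%, and in Metformin+FK506 against Control 91 and 17 (median -0.38), where they were 39.6% and 42.1%. With metformin added to FK506, 15 were lower and 10 higher (median -0.02), where 15.0% of all genes tested were lower and 15.6% higher. The T cell scaling gave 34 lower and 4 higher in this comparison (median -0.09), where the shares of all genes were 23.4% and 9.63%. The interaction was above 0 in 71 and below in 14 (median 0.27), against 22.5% and 24.0% of all genes, and above in 45 and below in 24 under T cell scaling (median 0.13), against 15.3% and 33.0%. Under T cell scaling the counts changed little for metformin, with 73 lower and 14 higher (23.0% and 32.8% of all genes), but in FK506 against Control 49 were lower and 53 higher (24.6% and 58.7% of all genes), with a median of 0.02 where that of all genes was 0.45. In Metformin+FK506 against Control 53 were then lower and 41 higher (27.1% and 55.9% of all genes). With TMM scaling, the members' medians were further from 0 than those of the other genes in each of these comparisons. With FK506 added to metformin, 63 of the 125 were lower and 37 higher, where 37.9% of all genes tested were lower and 40.3% higher. In the direct comparison of FK506 with Metformin the numbers were 64 and 31, where the shares were 38.6% and 39.9%. Both splits turned under T cell scaling, to 36 lower and 60 higher (median 0.11), where 25.5% of all genes were lower and 54.3% higher, and to 28 lower and 75 higher (median 0.24), where 23.3% were lower and 57.4% higher.

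**Figure D5:**
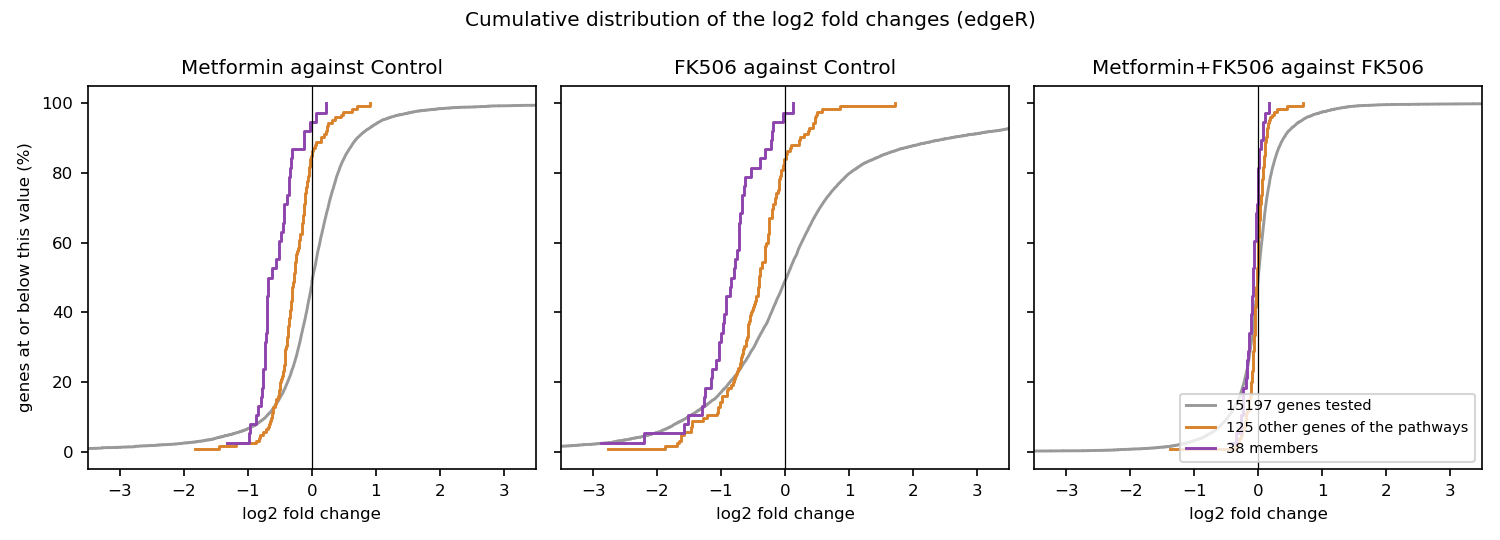
Cumulative percentage of genes by log2 fold change (edgeR) for the 38 members, the 125 other genes of the pathways and all 15197 genes tested, in 3 comparisons. Apart from its lower tail, the member curve lies left of the others for metformin and for FK506 alone, with medians of -0.66 and -0.82, and near the curve of all genes when metformin was added to FK506, with a median of -0.08.

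Most genes of both subunit lists were lower with either drug. With metformin, 29 of 45 small subunit and 35 of 43 large subunit factors were lower, with medians of -0.25 and -0.38, and 3 in each list were higher (27.4% and 28.6% of all genes). With FK506, 33 and 35 were lower (39.6% of all genes), with medians of -0.35 and -0.50, but under T cell scaling the medians were 0.07 and -0.08, with 16 lower and 21 higher in the small subunit list and 21 lower and 15 higher in the large subunit list (24.6% and 58.7% of all genes). Of 9 genes tested in the RNA polymerase I machinery, 3 were lower and 2 higher with metformin, and 4 were lower and 4 higher with FK506, near the shares over all genes (27.4% and 28.6%, and 39.6% and 41.3%). The T cell scaling gave 1 lower and 3 higher with metformin (23.0% and 32.8% of all genes). With FK506 it gave 2 lower and 6 higher (24.6% and 58.7% of all genes), with a median of 0.31. In that list Taf1d and Taf1c, which encode subunits of the promoter selectivity factor SL1, went opposite ways with FK506 (-1.66 and 0.87). Nol6, a small subunit factor, rose with FK506 relative to Metformin (0.79), while the large subunit factor Nsa2 was lower (-1.45). Rpf2, a factor of 5S particle incorporation, had one of the larger falls when metformin was added to FK506 (-0.35).

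The MYC network list holds, among others, the partner MAX and proteins that compete with MYC for it. Max was not past the threshold with metformin (0.02) and fell with FK506 (-0.25, but 0.18 under T cell scaling) and with both drugs (-0.43, a call lost under T cell scaling at -0.08). Mxd4, a repressor of the MXD family found in cells that leave the cycle, was at 7.21, 8.91 and 7.29 FPKM in Control, 17.1, 13.5 and 14.3 in Metformin, 28.5, 32.9 and 28.0 in FK506, and 33.7, 28.1 and 35.1 in Metformin+FK506. It thus rose in each treated group, by 0.90, 1.72 and 1.85 on the log2 scale, while Myc fell. Mxd1 fell by 0.25 with metformin, rose by 0.43 with FK506 and by 0.89 with both drugs. Mnt rose by 0.48, 0.37 and 0.31. Mxi1 went the other way, with changes of -0.81, -1.88 and -2.18, as did Mxd3 with FK506 (-0.90) and with both drugs (-2.28), while its value with metformin was -0.32 and not past the threshold. Mxd3 also had the largest fall of the 125 genes when metformin was added to FK506 (-1.38), from 3.73 to 5.30 FPKM down to 1.39 to 2.08. Mga and Mlx fell with metformin (-0.42 and -0.34) and with FK506 (-0.16 and -0.42, but 0.26 and 0.00 under T cell scaling).

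In polyamine metabolism, 10 of 13 genes fell with metformin and 10 with FK506, where 27.4% and 39.6% of all genes were lower. With FK506, 5 were lower and 4 higher under T cell scaling (24.6% and 58.7% of all genes). Eif5a, whose protein carries the hypusine residue made from spermidine, was at 677, 648 and 657 FPKM in Control, 301, 302 and 290 in Metformin, 285, 276 and 268 in FK506 and 218, 230 and 237 in Metformin+FK506. It fell by 1.18, 1.48 and 1.72 on the log2 scale against Control. The hypusine enzymes Dhps (-0.51 and -0.42) and Dohh (-0.37 and -0.55) fell with metformin and FK506 too, and the FK506 value of Dhps was 0.00 under T cell scaling. Smox, spermine oxidase, fell by 1.45 with each single drug, and Azin2, an antizyme inhibitor, by 1.82 with metformin and 2.77 with FK506, at low levels (3.87 to 4.82 FPKM in Control and 0.563 to 0.899 in FK506). Sat1, the acetyltransferase that starts polyamine breakdown, rose by 0.70 and 0.47. Sms, spermine synthase, fell by 0.43 and 1.06, and Amd1, which supplies decarboxylated S-adenosylmethionine, by 0.68 and 0.39, the latter 0.03 under T cell scaling. Amd1 and Amd2 are near copies, and their reads may be divided between them.

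In pyrimidine synthesis the salvage kinase Uck2 and the CTP synthase Ctps were lower in every treated group. Uck2 was at 69.4, 69.6 and 71.5 FPKM in Control, 40.8, 37.6 and 37.4 in Metformin, 19.4, 20.8 and 20.9 in FK506 and 17.1, 15.2 and 16.9 in Metformin+FK506, the same order of groups as Myc. Ctps fell by 0.40 with metformin, 1.47 with FK506 and 1.72 with both drugs. Its paralog Ctps2 rose with metformin (0.62) and with FK506 (0.47). Dhodh, the mitochondrial enzyme of the pathway, fell by 0.62 with metformin and 0.41 with FK506, the latter 0.01 under T cell scaling, while Umps was not past the threshold with metformin (-0.05) and fell with FK506 (-0.56).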

How the data were processed

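Polyadenylated RNA from 12 cultures was sequenced, 3 in each of 4 groups. Per the submitters' processing notes, the tools were bcl2fastq 2.20.0, Trimmomatic, HISAT2 2.1.0 and StringTie 2.1.3b, with build mm10; the annotation and strand setting are not given in the sources used here. The authors deposited raw read counts per gene and FPKM values in a single table, and the 12 columns of TPM were not used. Genes that reached 0.5 FPKM in 3 or more samples were tested with edgeR 4.0.16 (R 4.3.3) by the quasi-likelihood test on counts, with TMM scaling, all 12 samples in one fit with 8 residual degrees of freedom, and Benjamini-Hochberg adjustment over 15197 genes. SE is the absolute log2 change divided by the square root of F. The scripts were tested on simulated data. Replicates differed by more than sampling noise (chi-square per degree of freedom 3.98 to 15.2). Alternatives used DESeq2 1.42.0, limma 3.58.1 with pseudocounts of 1 and 0.1, other scalings and filters, a replicate block and omission of each sample. The members and lists were chosen with earlier results of these data known, and the FK506 against Metformin contrast was added after values were seen. Named genes beyond the members were the 2 largest rises and falls per comparison and all genes of the MYC network, polyamine and pyrimidine lists, of which examples are given, with Cd4, C1qa and Lyz2 for cell types. Promoter sequences and gene positions came from RefSeq and GENCODE annotation of GRCm38, the build named mm10.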

Additional observations from a re-analysis of the deposited data

Results flagged for a closer look

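The metformin effect differed between cultures with and without FK506 in 34 of the 38 members, by the edgeR quasi-likelihood test of the interaction at an adjusted p under 0.05, where 22.5% of all genes tested were past the threshold above 0 and 24.0% below. In 31 members the log2 change with metformin was higher, so nearer to 0 or above it, when FK506 was present. Their interaction values on the log2 scale were Polr1b (1.03), Myc (0.89), Rrp12 (0.87), Nolc1 (0.87), Cad (0.85), Nop2 (0.83), Rrp9 (0.80), Ppan (0.74), Mybbp1a (0.71), Rrs1 (0.70), Odc1 (0.70), Noc4l (0.69), Mrto4 (0.67), Nop56 (0.66), Bop1 (0.64), Gar1 (0.63), Srm (0.61), Nop16 (0.60), Gnl3 (0.55), Nip7 (0.45), Pes1 (0.45), Wdr43 (0.43), Nhp2 (0.40), Polr1a (0.40), Tsr1 (0.40), Nop14 (0.37), Ddx21 (0.34), Utp20 (0.33), Heatr1 (0.28), Nop58 (0.21), Dkc1 (0.18). In 3 members the value was below 0: Ncl (-0.21), Npm1 (-0.38), Wdr12 (-0.40). All 10 B cell markers also had interactions below 0, 9 of them past the threshold (median -1.49), and their part in these values was not tested. Under T cell scaling the calls of Nop58, Dkc1, Utp20 and Heatr1 were lost.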

How the results depend on the processing

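Counts of lower members against Control stayed within 1.5 times under every scaling, filter and test tried at the same threshold. Of the 4796 single-gene values compared, 4643 kept direction and side of the threshold, while 105 lost the call, 8 gained it and 40 changed sign. These values leave out members without a call outside the comparisons with Control, so calls gained there were not counted. Many came from omissions of a single sample, which share most data with the main fit. Asking for 1 log2 unit or more left, higher and lower, 0 and 1 members in Metformin against Control, 0 and 13 in FK506 and in Metformin+FK506 against Control, 0 and 0 in Metformin+FK506 against FK506, 0 and 4 in Metformin+FK506 and in FK506 against Metformin, and 1 and 0 for the interaction. Scaled to T cell genes, the higher members numbered 5 in FK506 against Control, 2 in Metformin+FK506 against Control, 0 in Metformin+FK506 against FK506, 11 (16 lower) in Metformin+FK506 against Metformin and 17 (11 lower) in FK506 against Metformin, whose median turned to 0.099. With limma at either pseudocount, they numbered 2, 0 and 10 in FK506 against Control, Metformin+FK506 against FK506 and Metformin+FK506 against Metformin. Over all 15197 genes, 7585, 1945 and 7218 were higher in these comparisons at a pseudocount of 1, and 7591, 1738 and 7198 at 0.1. Without the filter, none was higher in FK506 or Metformin+FK506 against Control or in Metformin+FK506 against FK506 (0 each). Of the 27636 genes in that fit, 7577, 7565 and 1884 were higher. Median-of-ratios size factors and a fit of only the groups compared also left 0 higher in Metformin+FK506 against FK506 (2191 and 1916 of all genes tested). The cause was not tested.

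Leaving out single samples gave 0 to 1 higher and 12 to 14 lower members in Metformin+FK506 against FK506, 33 to 34 lower in Metformin against Control, 35 to 36 in FK506 against Control and 30 to 33 interactions above 0. The value of Utp20 in FK506 against Control ranged from -0.098 to 0.032, the latter without FK506 sample 1, and that of Wdr12 in Metformin against Control -0.0024 without Metformin sample 2. Deviations from the group means correlated weakly between same-numbered samples (r from -0.146 to 0.0853 over 18 pairs, 0 above 0.1). The highest r, 0.132, was between FK506 sample 1 and Metformin+FK506 sample 2. Values this small cannot show whether the numbers mark a shared source or batch. With the replicate block, 0 members were higher in Metformin+FK506 against FK506 (Cad 0.17, adjusted p = 0.0529) and no other count moved by over 1.5 times.

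Signs that turned under T cell scaling, with the values then obtained, were Ncl 0.022 in Metformin against Control; Polr1a 0.11, Utp20 0.39, Heatr1 0.20, Bop1 0.23, Wdr12 0.21 and Rrs1 0.036 in FK506 against Control; Utp20 0.28, Heatr1 0.063 and Bop1 0.087 in Metformin+FK506 against Control; Gnl3 0.045, Mybbp1a 0.087, Rrp9 0.0085, Pes1 0.067, Nop2 0.16 and Cad 0.11 in Metformin+FK506 against Metformin; and Nop56 0.056, Dkc1 0.17, Mybbp1a 0.17, Nop14 0.014, Noc4l 0.10, Wdr43 0.079, Tsr1 0.16, Wdr12 0.097, Nop2 0.16, Nop16 0.15, Nip7 0.13, Gnl3 0.26, Pes1 0.32 and Cad 0.021 in FK506 against Metformin. In Metformin+FK506 against FK506, 6 values without a call turned (Polr1b -0.029, Ddx21 -0.061, Nop14 -0.073, Wdr74 -0.061, Rrp12 -0.0029 and Nop2 -0.0035), as did the interaction of Ltv1 (-0.014). With limma at a pseudocount of 1 (and 0.1) they were Ncl 0.0082 (0.0083), Utp20 0.16 (0.18) and Bop1 0.022 (0.022) in the single-drug comparisons with Control, Utp20 0.11 (0.13) in Metformin+FK506 against Control and Nop2 0.026 (0.027) in Metformin+FK506 against Metformin. Unlike the list for T cell scaling, the limma list leaves out values without a call outside the comparisons with Control, and some of those may also have turned. Depth did not limit the members, since the lowest count was 598.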
